A study of Mus musculus with 9 samples.

Results

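The proteasome is the barrel-shaped protease that degrades ubiquitin-tagged proteins, and the transcripts of its subunits were followed here in mouse liver across 3 diets. The genes were taken by name, as every symbol of the deposited count tables that consists of Psma, Psmb, Psmc, Psmd or Psme and a number, which gave 43 of 23337 genes. This rule and the gene lists used below were chosen with earlier results of these data known. Bulk RNA sequencing of 9 livers of wild-type (WT) mice was analysed, 3 for each diet. The normal diet group (ND) ate an unmodified diet, the HFD group a 60% high-fat diet, and the HFD_HDCA group the same 60% high-fat diet with 0.25% hyodeoxycholic acid (HDCA), a secondary bile acid. The diets were given for 12 weeks from 8 weeks of age, and the livers were taken from fed animals. All 9 animals carried the same genotype and no transgene is named in the labels, which give neither sex nor strain and do not say whether the livers of a group came from separate cages, so the p-values measure only the spread between these samples.

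The 20S core consists of stacked rings, with alpha subunits (Psma genes) in the outer rings, which gate the entry channel, and beta subunits (Psmb genes) in the inner rings, of which Psmb5, Psmb6 and Psmb7 carry the proteolytic sites. Interferon signalling induces the alternative catalytic subunits Psmb8, Psmb9 and Psmb10, which take the places of Psmb5, Psmb6 and Psmb7 in newly built particles, the immunoproteasome. The 19S cap recognises, unfolds and feeds the substrate, with a ring of ATPases (Psmc genes) and non-ATPase subunits (most Psmd genes), while Psmd5, Psmd9 and Psmd10 are chaperones that help to assemble the base of the cap. Psme1 and Psme2 form the PA28 activator, which interferon also induces, and Psme3 and Psme4 encode other activators of the core. In hepatocytes, as in other cells, a drop in proteasome activity is known to raise transcription of the subunit genes together through the factor NRF1 (gene Nfe2l1), which binds antioxidant-response-type elements.

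The windows around the annotated starts of 5 members are printed because the results below turn on their transcripts: Psma5 and Psmd9 passed the test under HDCA, and Psmb8, Psmb9 and Psme1 belong to the interferon-induced branch. Each window is the RefSeq sequence of 250 bases before to 50 bases from the start (GRCm38.p6), written 5′ to 3′ on the strand of the gene, and capitals mark any match to the motifs listed after them. Psma5 lies at chr3:108256676-108256975 (plus strand), Psmd9 at chr5:123227940-123228239 (plus), Psmb8 at chr17:34197945-34198244 (plus), Psmb9 at chr17:34187281-34187580 (minus) and Psme1 at chr14:55578244-55578543 (plus).
Psma5: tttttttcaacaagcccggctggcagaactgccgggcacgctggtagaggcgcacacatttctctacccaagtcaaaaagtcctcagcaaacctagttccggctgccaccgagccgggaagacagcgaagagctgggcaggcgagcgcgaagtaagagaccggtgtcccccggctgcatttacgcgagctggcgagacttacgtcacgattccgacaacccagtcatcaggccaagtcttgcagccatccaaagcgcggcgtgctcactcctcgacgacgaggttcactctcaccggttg
Psmd9: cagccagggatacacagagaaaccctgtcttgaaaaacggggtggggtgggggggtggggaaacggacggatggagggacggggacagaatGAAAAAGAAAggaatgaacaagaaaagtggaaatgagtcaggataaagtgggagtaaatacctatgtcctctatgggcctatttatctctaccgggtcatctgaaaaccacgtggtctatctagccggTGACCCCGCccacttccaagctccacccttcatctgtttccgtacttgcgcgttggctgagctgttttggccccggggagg
Psmb8: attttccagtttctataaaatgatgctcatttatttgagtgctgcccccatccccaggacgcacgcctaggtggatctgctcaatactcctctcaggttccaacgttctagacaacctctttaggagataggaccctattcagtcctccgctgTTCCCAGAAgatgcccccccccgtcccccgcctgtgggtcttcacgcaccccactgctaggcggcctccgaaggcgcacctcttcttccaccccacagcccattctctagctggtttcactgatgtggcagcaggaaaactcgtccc
Psmb9: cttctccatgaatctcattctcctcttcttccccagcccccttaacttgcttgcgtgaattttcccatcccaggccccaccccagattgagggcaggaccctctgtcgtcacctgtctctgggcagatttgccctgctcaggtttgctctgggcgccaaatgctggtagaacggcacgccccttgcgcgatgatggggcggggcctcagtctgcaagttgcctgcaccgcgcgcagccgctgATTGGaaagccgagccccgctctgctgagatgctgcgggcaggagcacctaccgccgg
Psme1: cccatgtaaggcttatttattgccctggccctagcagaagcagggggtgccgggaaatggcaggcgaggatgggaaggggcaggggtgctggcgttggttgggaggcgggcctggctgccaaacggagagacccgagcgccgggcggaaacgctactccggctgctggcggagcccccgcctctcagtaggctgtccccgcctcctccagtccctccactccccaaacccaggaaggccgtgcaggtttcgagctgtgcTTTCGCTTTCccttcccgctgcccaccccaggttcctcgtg
The motifs searched on both strands were the antioxidant response element core TGACNNNGC, the interferon-stimulated response element as 2 copies of GAAA with 2 bases between them, the interferon gamma-activated site TTCNNNGAA, the CCAAT box and the nuclear receptor repeat DR1 as 2 copies of AGGTCA with 1 base between them. Counting the first base of the transcript as 1, the Psmd9 window held an antioxidant response element core at -31 and an interferon-stimulated response element at -159, the Psmb8 window an interferon gamma-activated site at -97, the Psmb9 window a CCAAT box on the opposite strand at -8, and the Psme1 window an interferon-stimulated response element on the opposite strand at 10. In the Psma5 window none of these letters was found. Windows were available for 36 of the 43 members. The antioxidant response element core was present in 6 of the 36 (Psmb5, Psmb6, Psmc6, Psmd9, Psmd12 and Psme4) and in 12.4% of the 32851 mouse windows of the same length. The interferon-stimulated response element was present in 4 of the 36 (Psmb3, Psmd4, Psmd9 and Psme1) and in 3.44% of all windows, the interferon gamma-activated site in 2 (Psmb8 and Psmd2) and in 8.3%, the CCAAT box in 14 and in 37.4%, and the DR1 repeat in 0 and in 0.0396%. These matches describe letters and are not binding sites.

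The 9 libraries held 16994353 to 20509203 reads on genes, of which the members took 0.354 to 0.419%. After a filter on low counts 12587 genes were tested, among them 42 members. The remaining member, Psmb11, the beta subunit known from thymus, had 0 reads in all 9 libraries, which at 3 counts allows up to 0.152 to 0.182 CPM (reads of a gene scaled to library size) per library. Psma8, an alpha subunit known from testis, was close to the filter with 10 to 37 reads per library. The 7 hepatocyte markers of the label's tissue summed to 80214 to 116208 CPM per library, with a median log2 fold change of 0.0021 in HFD_HDCA against ND. In that comparison 3 of the 7 fell by edgeR (Cps1, Tat and Hnf4a), against 2.82% of all genes. Another 3 (Alb, Apoa1 and Ttr) were higher at an unadjusted p under 0.05, against 14.8% of all genes. Of these DESeq2 called Apoa1 and Ttr, with 11.1% of all genes called in either direction. Single libraries stood apart in genes that are not members. HFD 3 had 228 CPM of the macrophage gene Marco, against at most 20.5 CPM elsewhere. HFD_HDCA 1 had 3371 CPM of the acute-phase gene Saa1, against at most 74.4 CPM elsewhere, and HFD 1 had 85.8 CPM of the clock output gene Dbp, against at most 14.6 CPM elsewhere. Values without HFD_HDCA 1 are given beside the immunoproteasome and PA28 genes, and counts of called members without each library. In whole liver, fewer cells of a type and less RNA per cell cannot be told apart.

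Levels between genes were compared in FPKM, which is scaled by transcript length. The core subunits were the most abundant, with a median over genes of 96.3 FPKM for the 7 alpha subunits, 109 FPKM for the 4 structural beta subunits and 107 FPKM for the 3 constitutive catalytic subunits. The 6 ATPases of the cap had a median of 58.8 FPKM and its 11 non-ATPase subunits one of 43.9 FPKM. The 3 immunoproteasome genes had a median of 15.01 FPKM, from Psmb10 at 14.5 to Psmb8 at 22.6 FPKM, below every constitutive core gene. The 3 cap chaperones had a median of 13.8 FPKM, and the activators ran from 18.1 FPKM for Psme4, the nuclear activator PA200, to 80.1 FPKM for Psme2. Psmb5 gave 0.383 CPM for each FPKM, the lowest ratio of all members with a level above 0. A shorter transcript lowers this ratio, and Psmb5 had the fewest annotated exon bases of the members, 899. The annotation also holds a processed pseudogene copy of Psmb5 (Psmb5-ps) and the microRNA gene Mir686 within its exons, so its count is uncertain. The parts of length and of lost reads in the ratio were not tested. Copies are also annotated for Psmb6, Psmb7 and Psme2, with which reads could be shared.

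**Figure D1:**
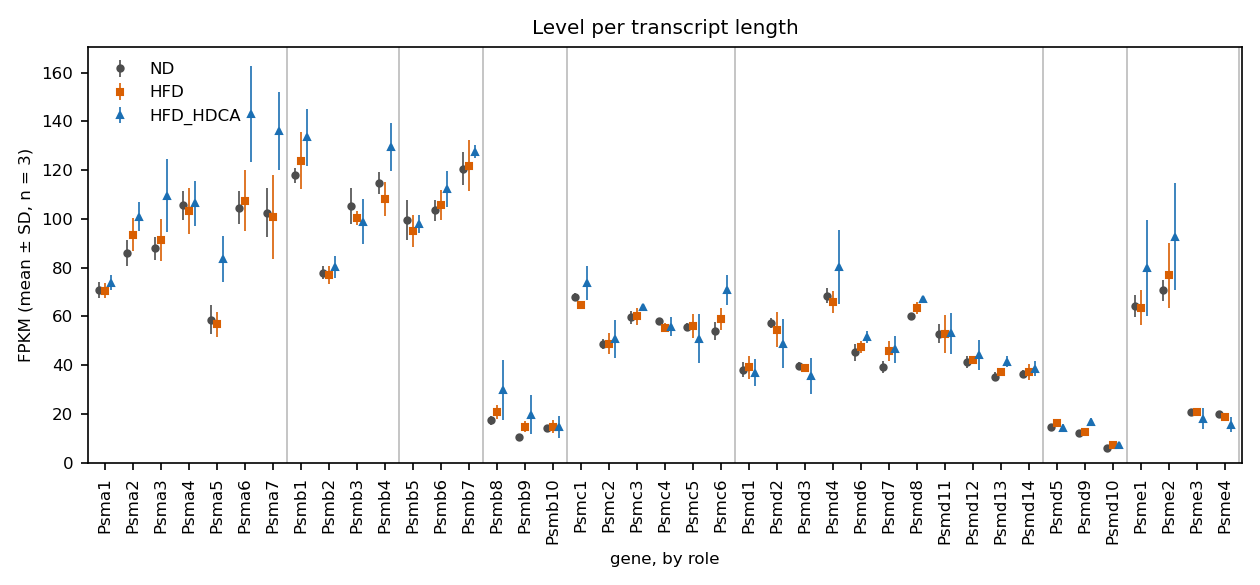
FPKM of each member (mean ± SD, n = 3 libraries per diet; Psma8 and Psmb11 not drawn), ordered by role, with grey lines between the roles in the order 20S alpha, 20S structural beta, constitutive catalytic, immunoproteasome, 19S ATPase, 19S non-ATPase, 19S chaperone and activator. By median over genes the 3 constitutive core groups lie highest, and the immunoproteasome genes and the cap chaperones lie lowest; Psma5 rises from 56.7 FPKM in HFD to 83.7 FPKM in HFD_HDCA.

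The first comparison asked what the high-fat diet alone did to the proteasome genes. No member was called in HFD against ND by edgeR's quasi-likelihood test at an adjusted p under 0.05, while 0.953% of all genes tested were called (0.477% in each direction). Without the adjustment 0 members passed as well, against 6.67% of all genes higher and 4.83% lower. The count with DESeq2 was 0, where it called 3.08% of all genes. The differences were small and leaned downward in counts: 35 of 42 members had a log2 fold change below 0 and 7 had one above it, against 53.3% of all genes above 0, and the median was -0.09 against 0.02 over all genes. In 9 members the HFD libraries all lay below the ND libraries (Psmb2, Psmb3, Psmb4, Psmc1, Psmc3, Psmc4, Psmd3, Psmd4 and Psme4), against 9.2% of all genes tested. In 1 member, Psmb9, they all lay above, against 10.9% of all genes. Without HFD 3, 12 of 42 members had a log2 fold change above 0, with a median of -0.05 against 0.02 over all genes. On the deposited FPKM scale the direction turned, with 24 of 41 members above 0 and a median of 0.01, where the median of all genes was itself shifted to 0.09.

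The 4 members with the smallest p in that comparison were a structural core subunit, a pair of cap ATPases and the barely detected testis subunit. Psmb3, a structural beta subunit, had 69.4, 68.7 and 63.9 CPM in ND 1 to 3 and 60.1, 60.3 and 57.0 CPM in HFD 1 to 3. The groups did not overlap, and the fitted log2 difference was -0.19 ± 0.09 (SE), with an adjusted p of 0.499 by edgeR. Psmc1, an ATPase of the cap ring, had 116, 116 and 117 CPM in ND and 99.0, 107 and 99.8 CPM in HFD, again without overlap, at an adjusted p of 0.510 by edgeR. Psmc4, another ATPase of the same ring, had 111, 105 and 109 CPM in ND and 91.8, 104 and 92.5 CPM in HFD. The highest HFD library of Psmc4 lay just under the lowest ND library. Psma8 had 1.09, 2.01 and 1.504 CPM in ND and 0.704, 1.11 and 0.729 CPM in HFD, which overlapped. The ND livers were alike for these genes: the median coefficient of variation over the tested members was 3.38% in ND, 8.65% in HFD and 10.9% in HFD_HDCA, against 9.53, 13.4 and 15.2% over all genes tested. Members and all genes were not matched for expression level in these medians.

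**Figure D2:**
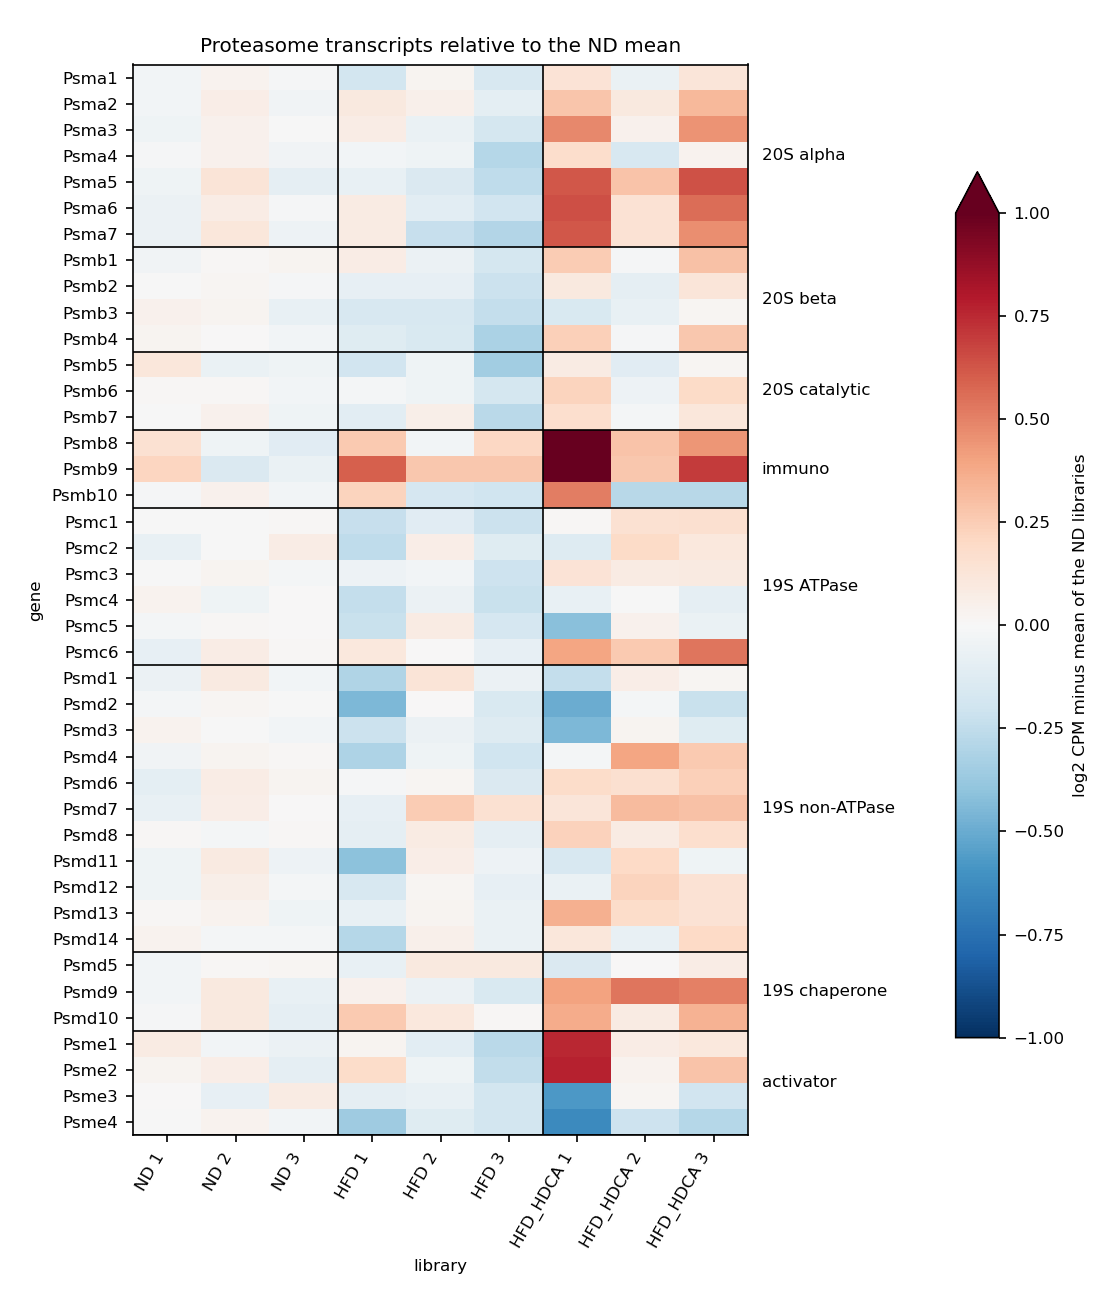
Each cell is a member's log2 CPM in a library minus its mean over the ND libraries, with members in rows by role (Psma8 and Psmb11 not drawn) and libraries in columns; red is higher than ND, blue is lower, and values above 1 take the darkest red. The alpha subunits Psma5, Psma6 and Psma7 are red in HFD_HDCA 1 and 3 and paler in HFD_HDCA 2, while Psmb8 and Psmb9 are darkest in HFD_HDCA 1.

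Adding HDCA to the high-fat diet was the study's treatment comparison, and it shares its HFD libraries with the comparison above. In HFD_HDCA against HFD, 2 members rose, Psma5 and Psmd9, and 0 fell, while 3.4% of all genes tested were called (1.67% higher and 1.73% lower). A positive log2 fold change was found in 36 of 42 members, against 49.7% of all genes, with a median of 0.19 against -0.00 over all genes. The size of that median moved with the scaling: with library totals it was 0.11 (34 of 42 members above 0) against -0.09 over all genes, and on log2(FPKM + 1) it was 0.07 (32 of 41) against -0.09. In 16 of 42 members (38.1%) the HFD_HDCA libraries all lay above the HFD libraries, against 11.3% of all genes, and in 0 they all lay below. At an unadjusted p under 0.05, 14 members were higher and 0 lower, against 11.6% and 10.4% of all genes. DESeq2 called 8 members higher (Psma5, Psma6, Psma7, Psmb4, Psmc1, Psmc6, Psmd4 and Psmd9) and 0 lower, with 8.8% of all genes called in either direction. With HFD 2, HFD 3 or HFD_HDCA 3 left out, edgeR called 0 members, and 1.56, 1.2 and 0.993% of all genes. It called 4 members without HFD 1 (5.26% of all genes), 3 without HFD_HDCA 1 (3.18%) and 7 without HFD_HDCA 2 (5.06%).

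**Figure D3:**
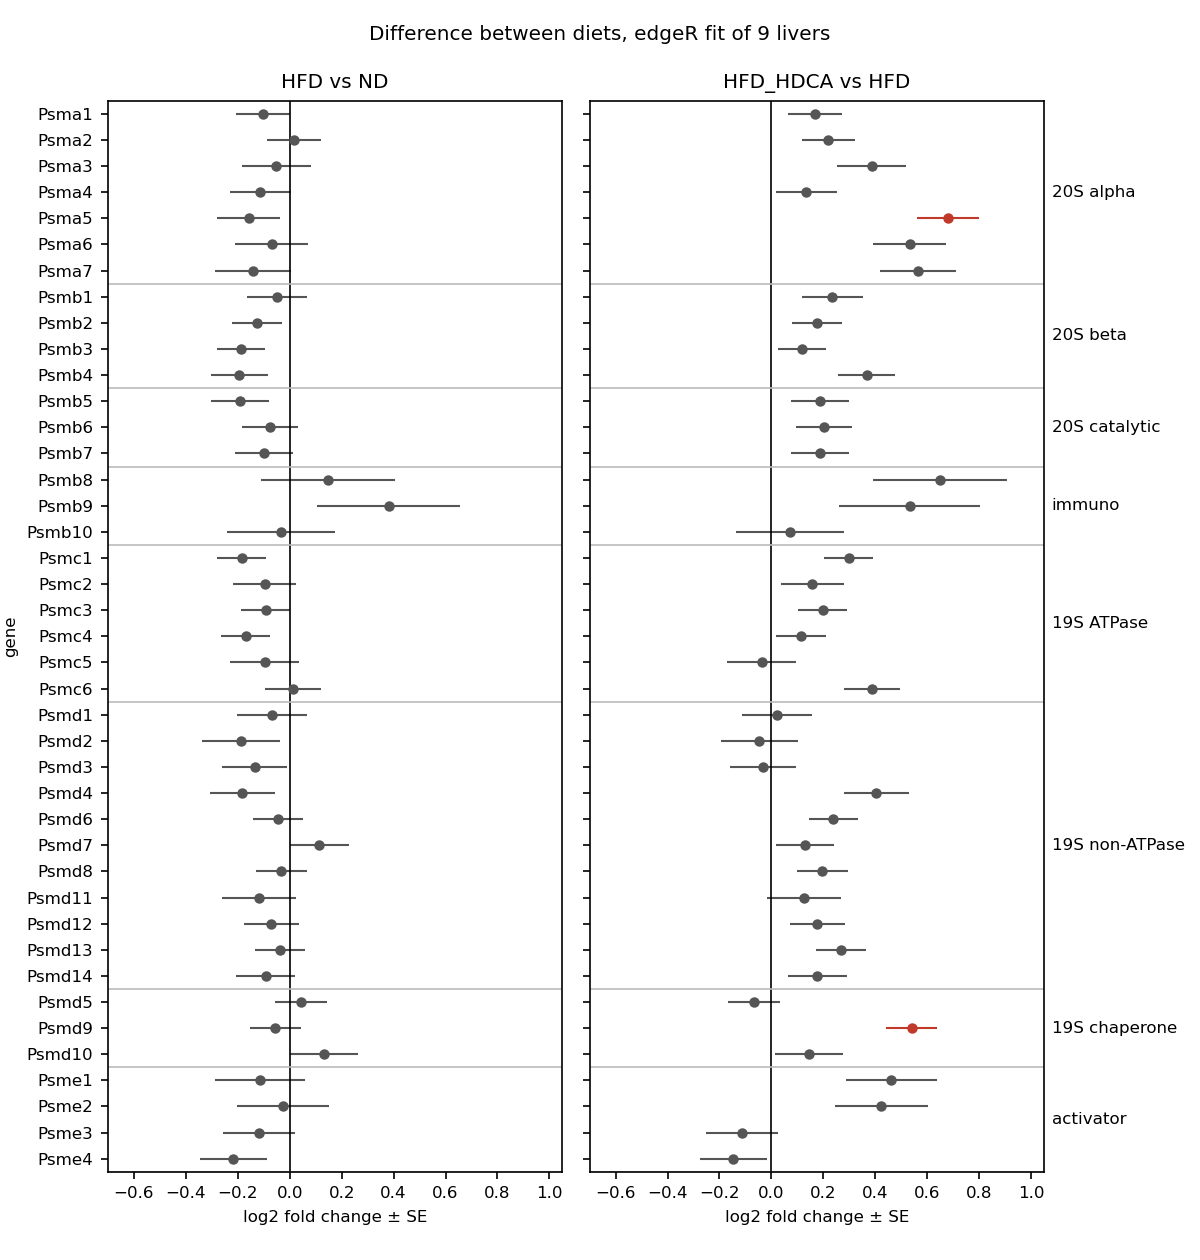
Fitted log2 fold change ± SE of 41 tested members (Psma8 not drawn) in HFD against ND (left) and HFD_HDCA against HFD (right), from the edgeR model of 9 libraries; red marks members at an adjusted p under 0.05. Psma5 at 0.68 and Psmd9 at 0.54 are red on the right, and none is red on the left. Both panels use the same HFD libraries.

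Psma5, an alpha ring subunit of the core, lies at chr3:108256926-108279952 on the plus strand by RefSeq, and in GENCODE it shares 60 exon bases with a gene on the other strand. It had 68.7, 65.3 and 60.6 CPM in HFD 1 to 3 and 111, 88.1 and 113 CPM in HFD_HDCA 1 to 3, with 70.3, 79.0 and 68.0 CPM in ND 1 to 3. All 3 HFD_HDCA libraries lay above all 6 others, the second of them least. The fitted log2 fold change against HFD was 0.68 ± 0.12 (SE), at an adjusted p of 0.0167 by edgeR. The FPKM values gave 0.55 for the same difference on the log2(FPKM + 1) scale, which limma called.

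The other alpha subunits leaned the same way, and 7 of 7 had a positive log2 fold change, with a median of 0.39. Psma6, the next alpha gene by p together with Psma7, had 126, 111 and 104 CPM in HFD and 186, 132 and 175 CPM in HFD_HDCA. Its groups did not overlap, and the log2 fold change was 0.53 ± 0.14 (SE), at an adjusted p of 0.0659 by edgeR. Psma7 had 111, 89.4 and 85.5 CPM in HFD and 162, 116 and 145 CPM in HFD_HDCA, also without overlap. Its log2 fold change was 0.56 ± 0.15 (SE), at an adjusted p of 0.0634 by edgeR. The remaining alpha genes ranged from 0.13 for Psma4 to 0.39 for Psma3.

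No constitutive beta subunit was called by edgeR. The 4 structural beta subunits had log2 fold changes of 0.12 to 0.37, and Psmb4, the largest, had an adjusted p of 0.0948 by edgeR. These values overlapped those of the alpha subunits, and a difference between the rings was not tested. The 3 constitutive catalytic subunits had 0.19 to 0.20, and their libraries overlapped. Psmb5, the chymotrypsin-like site, had 34.2, 37.8 and 30.6 CPM in HFD and 41.2, 36.0 and 39.6 CPM in HFD_HDCA. Psmb6, the caspase-like site, had 122, 121 and 109.9 CPM in HFD and 144, 119.6 and 142 CPM in HFD_HDCA. Psmb7, the trypsin-like site, had 119, 134 and 107 CPM in HFD and 144, 127 and 139 CPM in HFD_HDCA. In both Psmb6 and Psmb7 the second HFD_HDCA library fell within the range of the HFD libraries.

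In the 19S cap the chaperone Psmd9 was the member that rose. Psmd9, which binds a cap ATPase during assembly of the base, lies at chr5:123228190-123250126 on the plus strand by RefSeq. The GENCODE annotation starts the gene earlier, at 123169413, and there it shares 1849 exon bases with Gm26745 on the other strand. Whether these bases lie within the RefSeq locus was not checked. Reads on them cannot be told from those of Gm26745 unless the counting used strand. Psmd9 had 42.5, 39.7 and 37.1 CPM in HFD and 54.7, 60.0 and 58.7 CPM in HFD_HDCA, with 40.5, 44.1 and 39.3 CPM in ND. The HFD_HDCA libraries lay close together and above all 6 others. The log2 fold change against HFD was 0.54 ± 0.10 (SE), at an adjusted p of 0.0190 by edgeR. With library totals in place of scaling factors the adjusted p was 0.0588, and on the FPKM scale 0.0597. The other cap chaperones were not called, Psmd5 at -0.07 and Psmd10, known as gankyrin, at 0.14 on the log2 scale.

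Of the 20 Psmc and Psmd genes together, 16 had a positive log2 fold change, with a median of 0.17. Psmc6, an ATPase of the cap ring, had 114, 106 and 99.8 CPM in HFD and 139, 126 and 153 CPM in HFD_HDCA, without overlap. Its log2 fold change was 0.39 ± 0.11 (SE), at an adjusted p of 0.0795 by edgeR. Psmd4, a ubiquitin receptor of the cap, had the largest difference of the non-ATPase subunits, 0.40 at an adjusted p of 0.0997 by edgeR. The scaffold subunits Psmd1 and Psmd2 were at 0.02 and -0.05. These counts moved with single libraries and with the scaling. Without HFD 1, 14 of 20 cap genes were positive, with a median of 0.11, while with library totals 15 were, with a median of 0.09, and on log2(FPKM + 1) 15 were, with a median of 0.05. Without HFD_HDCA 1, 20 of 20 were positive, with a median of 0.20, and Psmd4 was called in addition to Psma5 and Psmd9.

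**Figure D4:**
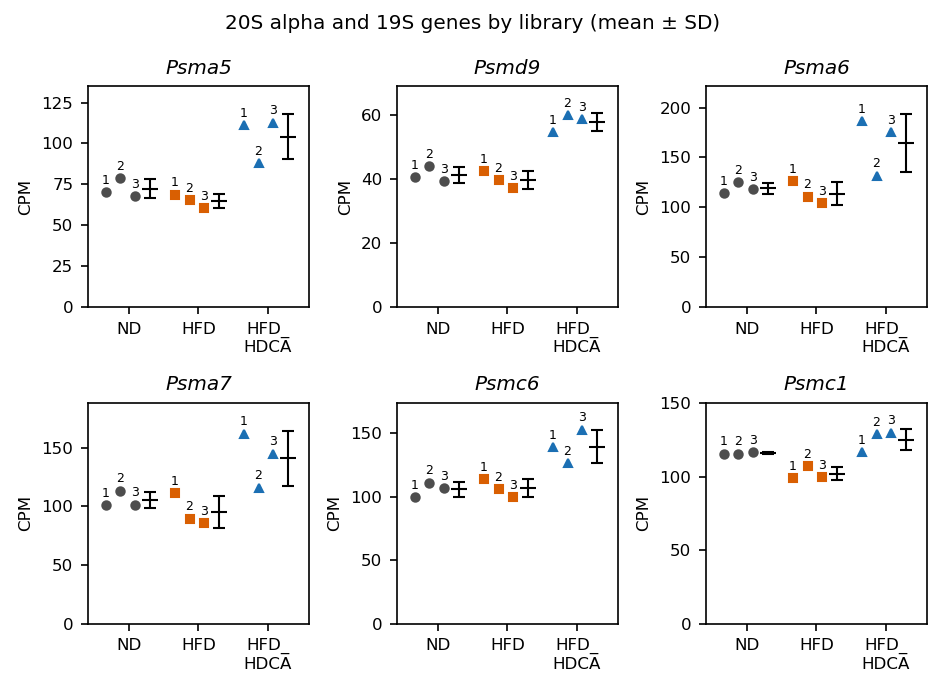
CPM of 6 members in each library, numbered by replicate, with the mean ± SD of each diet (n = 3) beside the points and axes that start at 0. In Psma5 and Psmd9 all HFD_HDCA libraries lie above all others; in Psma6, Psma7 and Psmc6 the second HFD_HDCA library comes nearest to the other diets.

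Against ND, HFD_HDCA gave the same 2 calls, Psmd9 and Psma5, in a comparison in which 6.47% of all genes tested were called (3.65% higher and 2.82% lower). It shares libraries with both comparisons above. A positive log2 fold change was found in 31 of 42 members, against 53% of all genes, with a median of 0.11 against 0.03 over all genes. With library totals the split was closer to even, at 24 of 42 members above 0 with a median of 0.03, against -0.06 over all genes, and 0 members were called. In 14 of 42 members the HFD_HDCA libraries all lay above the ND libraries, against 17.8% of all genes, and in 1 they all lay below, against 16.1%. At an unadjusted p under 0.05, 11 members were higher and 1 lower, against 14.8% and 11.4% of all genes. Psmd9 was higher by 0.48 ± 0.10 (SE) on the log2 scale, at an adjusted p of 0.0199, and Psma5 by 0.52 ± 0.12 (SE), at an adjusted p of 0.0313, both by edgeR. The number of members called was 0 without ND 1, ND 3 or HFD_HDCA 3, with 1.54, 2.6 and 2.41% of all genes called. It was 1 without ND 2 (2.69% of all genes) or HFD_HDCA 1 (5.4%) and 8 without HFD_HDCA 2 (9.48%). Without HFD_HDCA 1 the adjusted p of Psma5 by edgeR was 0.0636. Psmc6 had 99.6, 111 and 106 CPM in ND against its 139, 126 and 153 CPM in HFD_HDCA, at an adjusted p of 0.0563 by edgeR. Psma6 had 114, 125 and 118 CPM in ND, below all 3 HFD_HDCA libraries, at an adjusted p of 0.0769 by edgeR.

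The member that lay below ND in all HFD_HDCA libraries was Psme4, the activator PA200. It had 179.6, 184 and 177 CPM in ND, 141, 166 and 159 CPM in HFD and 116, 156 and 148 CPM in HFD_HDCA. The ND libraries were above all 6 high-fat libraries. The log2 fold change of HFD_HDCA against ND was -0.37 ± 0.13 (SE), at an adjusted p of 0.111 by edgeR. Psme4 was outside the rule for genes shown by library and was chosen after its values were seen.

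None of the 3 immunoproteasome genes passed edgeR's test in any comparison of the model of all 9 libraries without covariates, and their highest values came from a single library. Without HFD_HDCA 2 edgeR called Psmb8 and Psmb9 in HFD_HDCA against ND, where it called 9.48% of all genes. At an unadjusted p under 0.05, 1 of the 3 genes was higher in HFD_HDCA against HFD, against 11.6% of all genes. In HFD_HDCA against ND 2 were higher, Psmb8 and Psmb9, against 14.8% of all genes. There DESeq2 called those 2, with 11.1% of all genes called in either direction. Psmb8, the counterpart of Psmb5, had 28.2, 24.7 and 23.4 CPM in ND, 30.4, 24.9 and 29.3 CPM in HFD and 67.1, 30.9 and 34.5 CPM in HFD_HDCA. HFD_HDCA 1 was the highest library, and the other HFD_HDCA libraries lay just above the HFD range. Its log2 fold change in HFD_HDCA against HFD was 0.65 ± 0.26 (SE), at an adjusted p of 0.184 by edgeR, and it was 0.23 without HFD_HDCA 1. Against ND it was 0.79, and 0.36 without HFD_HDCA 1. Psmb9, the counterpart of Psmb6, had 11.9, 9.27 and 9.78 CPM in ND, 15.6, 12.4 and 12.4 CPM in HFD and 29.3, 12.4 and 16.7 CPM in HFD_HDCA. All 6 high-fat libraries lay above the ND libraries, by 0.38 ± 0.28 (SE) on the log2 scale in HFD at an adjusted p of 0.666, and by 0.91 ± 0.27 (SE) in HFD_HDCA at an adjusted p of 0.0782, both by edgeR. Without HFD_HDCA 1 the last difference was 0.49. In HFD_HDCA against HFD the libraries of Psmb9 overlapped. The log2 fold change there was 0.53 ± 0.27 (SE), at an adjusted p of 0.282 by edgeR, and it was 0.13 without HFD_HDCA 1.

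Psmb10, the counterpart of Psmb7, was highest in HFD_HDCA 1 as well. It had 23.1, 24.0 and 23.0 CPM in ND, 27.3, 20.8 and 20.3 CPM in HFD and 33.3, 19.3 and 19.3 CPM in HFD_HDCA. The first library of each high-fat group was high and the others were below ND. Its log2 fold change in HFD_HDCA against HFD was 0.07 ± 0.21 (SE) and became -0.23 without HFD_HDCA 1, and whether it differed from Psmb8 and Psmb9 was not tested. Psmb8 and Psmb9 lie close together, at chr17:34198195-34201454 (plus strand) and chr17:34182030-34187330 (minus strand) by RefSeq. In GENCODE Psmb9 extends to 34187764 and shares 212 exon bases with Tap1 on the other strand. Whether these bases lie within the RefSeq locus was not checked. Reads of Psmb9 on them cannot be told from those of Tap1 unless the counting used strand. Psmb10 lies at chr8:105935728-105938392 on the minus strand.

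The PA28 genes Psme1 and Psme2 were not called either, and 0 activators were called by DESeq2. Psme1 had 74.3, 68.6 and 67.3 CPM in ND, 71.4, 64.9 and 58.0 CPM in HFD and 118, 73.9 and 75.4 CPM in HFD_HDCA. Psme2 had 61.7, 63.2 and 56.8 CPM in ND, 68.9, 58.6 and 51.0 CPM in HFD and 104, 62.2 and 73.8 CPM in HFD_HDCA. In both genes HFD_HDCA 1 was the highest library. HFD_HDCA 3 lay above every ND and HFD library, while HFD_HDCA 2 lay within their range. The log2 fold change in HFD_HDCA against HFD was 0.46 for Psme1, at an adjusted p of 0.159, and 0.42 for Psme2, at an adjusted p of 0.200, both by edgeR. Without HFD_HDCA 1 Psme1 was at 0.22 and Psme2 at 0.20.

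**Figure D5:**
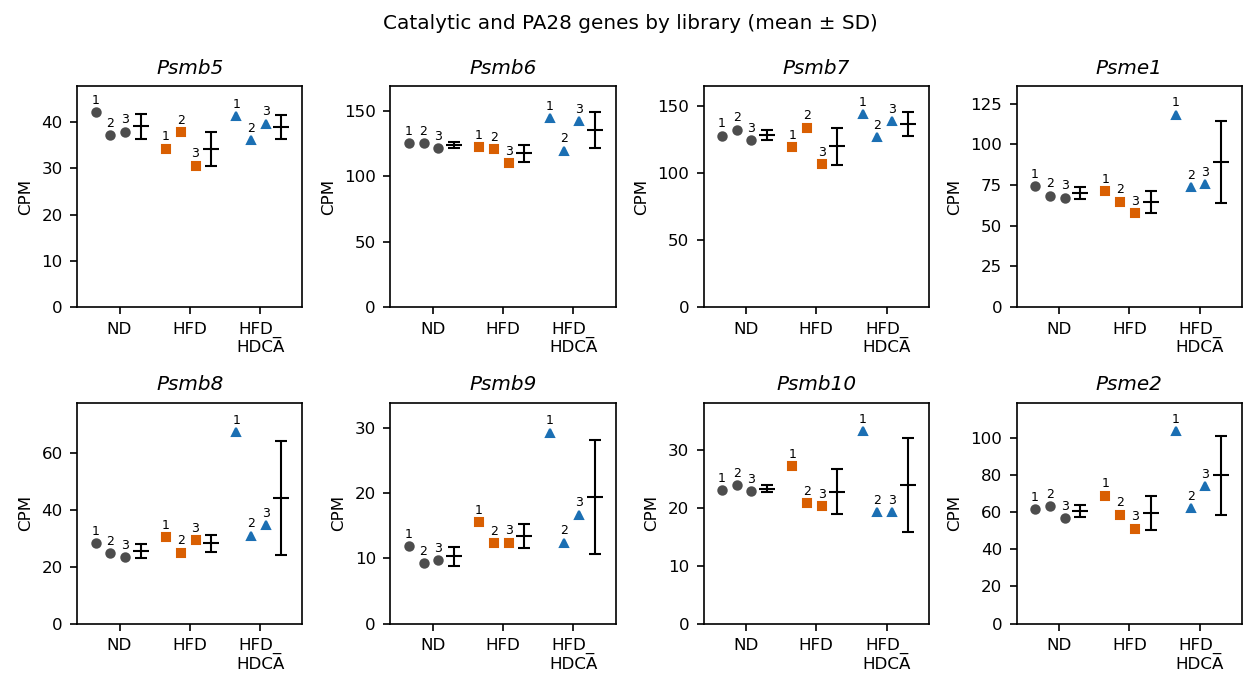
CPM of the constitutive catalytic genes (top row, with Psme1) and the immunoproteasome genes (bottom row, with Psme2) in each library, numbered by replicate, with the mean ± SD of each diet (n = 3) and axes that start at 0. HFD_HDCA 1 is the highest library for Psmb8, Psmb9, Psmb10, Psme1 and Psme2, at 67.1 CPM for Psmb8 against 34.5 CPM or less in the other 8.

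Some other measures were also highest in HFD_HDCA 1, while others lay within the range of the other libraries. The summed CPM of 5 neutrophil markers was 12.0 there, against 0.556 to 2.6 in the other libraries, with Ly6g not listed in the tables. The sum of 10 macrophage markers was 805 CPM there, but ran from 168 to 1068 CPM in the HFD libraries alone and from 460.4 to 552 CPM in ND. The 11 T, NK and NKT cell markers summed to 9.03 CPM, against 4.32 to 8.66 CPM in the others, the 5 dendritic cell markers to 6.97 CPM, against 3.99 to 5.63 CPM, and the 7 B and plasma cell markers to 64.8 CPM, against 54.0 to 121 CPM, with Tnfrsf17 at 0 in all 9. The 7 acute-phase genes summed to 13184 CPM, against 1926 to 3347 CPM. Outside the immune lists, the 5 cholangiocyte markers summed to 119 CPM, against 45.2 to 84.8 CPM. The 7 stellate cell markers summed to 448 CPM, against 296 to 436 CPM, and the 7 endothelial markers to 275 CPM, against 167 to 348 CPM. The part of these in the immunoproteasome values was not tested.

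The ratio of each immunoproteasome gene to its constitutive counterpart was taken in FPKM within each library, which removes scaling differences between libraries. Psmb8 was at 17.8, 17.5 and 17.2% of Psmb5 in ND, 22.7, 18.3 and 24.7% in HFD and 43.1, 23.2 and 23.8% in HFD_HDCA. The level of this ratio rests on Psmb5, whose count is uncertain as given above. In CPM, which is not scaled by transcript length, Psmb8 averaged 32.6 and Psmb5 37.4 over the 9 libraries. Psmb9 was at 11.5, 9.03 and 10.01% of Psmb6 in ND, 15.4, 12.9 and 13.3% in HFD and 25.04, 12.8 and 14.5% in HFD_HDCA. For both pairs all 6 high-fat libraries were above the 3 ND libraries. The two-sided exact permutation p was 0.1 for HFD against ND and for HFD_HDCA against ND in both pairs, the smallest that 3 against 3 can give, and 0.225 after adjustment over the 9 tests. Between HFD_HDCA and HFD the exact p was 0.4 for Psmb8 to Psmb5 and 0.7 for Psmb9 to Psmb6. Psmb10 was at 11.8, 11.7 and 11.6% of Psmb7 in ND, 14.2, 10.2 and 12.1% in HFD and 15.2, 9.79 and 9.16% in HFD_HDCA, which overlapped throughout.

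Genes that act on the proteasome from outside the name rule were read from short lists. Of 14 tested assembly and accessory factors, 1 rose and 0 fell in HFD_HDCA against ND, where 3.65% of all genes rose. None was called by edgeR in the other comparisons. At an unadjusted p under 0.05, 0 were higher or lower in HFD against ND, against 6.67% and 4.83% of all genes. In HFD_HDCA against HFD 1 was higher, against 11.6% of all genes. The gene that edgeR called was Zfand5, which encodes a zinc-finger protein known to stimulate the proteasome. Zfand5 had 45.9, 49.1 and 51.8 CPM in ND, 53.8, 55.6 and 56.0 CPM in HFD and 65.8, 70.5 and 71.6 CPM in HFD_HDCA, so the 3 diets did not overlap. Its log2 fold change in HFD_HDCA against ND was 0.50 ± 0.09 (SE), at an adjusted p of 0.0129 by edgeR. Against HFD it was 0.33 at an adjusted p of 0.0777 by edgeR. There DESeq2 called it, with 8.8% of all genes called. In HFD against ND the smallest p belonged to Adrm1, a ubiquitin receptor of the cap, at -0.28 and an adjusted p of 0.529 by edgeR.

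Of 12 genes of the NRF1 axis and linked regulators edgeR called none. At an unadjusted p under 0.05, 1 was higher in HFD against ND, against 6.67% of all genes. In HFD_HDCA against HFD 2 were higher and 1 lower, against 11.6% and 10.4% of all genes. In HFD_HDCA against ND 1 was higher, against 14.8% of all genes. Nfe2l1, the gene of NRF1, had 144, 173 and 139 CPM in ND, 144, 187 and 170.5 CPM in HFD and 165, 224 and 241 CPM in HFD_HDCA, with overlap between all diets. It had the smallest p of the list in HFD_HDCA against ND, at 0.47 and an adjusted p of 0.110 by edgeR. Nfe2l2, the gene of the related factor NRF2, had 72.3, 77.0 and 61.6 CPM in ND, 105, 109 and 96.4 CPM in HFD and 64.3, 73.9 and 84.7 CPM in HFD_HDCA, and the HFD libraries lay above all others. Its adjusted p by edgeR was 0.0831 for HFD against ND and 0.0686 for HFD_HDCA against HFD. DESeq2 called it in both, where it called 3.08% and 8.8% of all genes.

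Of 5 tested shuttle receptors, which carry ubiquitinated proteins to the cap, edgeR called none in any comparison, with 0 at an unadjusted p under 0.05 and 0 by DESeq2. Of the 10 genes of class I antigen processing, 2 rose in HFD_HDCA against ND, where 3.65% of all genes did. These were Tap1, a peptide transporter subunit, by 0.83 at an adjusted p of 0.00868, and Irf1, an interferon-responsive factor, by 0.68 at an adjusted p of 0.0227, both by edgeR.

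The interferon response list holds other genes of the pathway that induces the immunoproteasome. Of its 18 genes, 11 rose in HFD_HDCA against ND, against 3.65% of all genes tested, and 4 rose in HFD_HDCA against HFD (Iigp1, Ifit1, Isg15 and Ifit3), against 1.67%. None was called by edgeR in HFD against ND, where DESeq2 called 4 of the 18 and 3.08% of all genes. At an unadjusted p under 0.05, 8 were higher and 1 lower there, against 6.67% and 4.83% of all genes. Ifit1, an interferon-induced inhibitor of translation, had 4.8 CPM on average in ND, 9.5 CPM in HFD and 20.4 CPM in HFD_HDCA. Its log2 fold change in HFD_HDCA against HFD was 1.10 ± 0.23 (SE), at an adjusted p of 0.0349 by edgeR. The summed CPM of the list was 681 to 765 in ND, 758 to 911 in HFD and 1107 to 1254 in HFD_HDCA, and the HFD_HDCA libraries did not overlap those of the other diets.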

How the data were processed

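Counts per gene were deposited by the authors as HTSeq tables, and whole numbers were read as raw counts with no normalization. Per the file headers, the authors' Cufflinks tables hold FPKM. The tools and build are given as TopHat 1.3.2, Cufflinks 2.0.2 and mm10, per the submitters' processing notes. The count tables are named as antisense counts by the authors, while the strand setting and annotation of the counting are not given in the sources used here, so whether reads of overlapping genes on opposite strands were separated is unknown. Groups and replicate numbers came from the sample titles.

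The 5 rows of reads assigned to no gene, 27.9 to 36.1% of each file, were left out. Genes were kept by filterByExpr (minimum count 10) and scaled by TMM in edgeR 4.0.16 (R 4.3.3), and CPM use these factors. All 9 libraries entered 1 quasi-likelihood model (robust, two-sided), with Benjamini-Hochberg adjustment over the 12587 genes tested and calls at an adjusted p under 0.05. The script was tested on simulated data. Alternatives were DESeq2 1.42.0, other scaling and filters, 2-group fits, a replicate block, leaving out libraries, and limma 3.58.1 on log2(FPKM + 1) or log2(FPKM + 0.1) for genes with a mean FPKM of at least 1. Floors and counts cover counting error only. Replicates of a group differed by more than counting error (chi-square per degree of freedom 11.1 to 90.8).

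Members and lists were chosen with earlier results of these data known. Libraries were shown for the catalytic and PA28 genes, called members and the 4 smallest p in a comparison; other lists give called genes and the smallest p. A result of 1 list is not reported here.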

Additional observations from a re-analysis of the deposited data

How the results depend on the processing

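Counts of called members moved with the fit. In HFD_HDCA against HFD, where the count was 2, it was 8 with DESeq2, 1 with library totals, 0 with the 2 groups alone, 6 without HFD 1 and HFD_HDCA 1 together, 1 on log2(FPKM + 1), 1 on log2(FPKM + 0.1) and 0 without an FPKM filter, and 0 to 7 when single libraries were left out. In HFD_HDCA against ND, also 2, it was 6 with DESeq2, 0 with library totals and 0 without an FPKM filter, and 0 to 8 over single libraries. No member was called in HFD against ND under any of these. Over all genes the calls ranged from 32 to 576, 127 to 1085 and 196 to 1398 in HFD against ND, HFD_HDCA against HFD and HFD_HDCA against ND. With the replicate block 2 members were called in each HFD_HDCA comparison, Psma5 and Psmd9 against HFD and Psmb9 and Psmd9 against ND, where by edgeR Psmb9 had an adjusted p of 0.0312 and Psma5 0.051. Same-numbered libraries correlated between -0.149 and 0.153, so the numbers were not taken to pair the livers.

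Small log2 differences changed sign. In HFD against ND, the 3 FPKM settings gave 0.11, 0.11 and 0.11 for Psme2, 0.047, 0.049 and 0.047 for Psmb10, 0.030, 0.031 and 0.030 for Psmb6 and 0.013, 0.013 and 0.013 for Psmb7, and over single libraries Psme2 ran from -0.15 to 0.073 and Psmb10 from -0.19 to 0.041. In HFD_HDCA against HFD, Psmb10 was -0.031 with library totals, -0.073 without HFD 1 and HFD_HDCA 1, and -0.043, -0.047 and -0.043 on FPKM, and ran from -0.23 to 0.23 over single libraries. Against ND it was -0.060 with library totals, -0.011 with the replicate block and -0.28 without both libraries, and ran from -0.28 to 0.18, and Psmb5 ran from -0.049 to 0.054. The log2 ratio of Psmb10 to Psmb7 ran from -0.081 to 0.16, from -0.35 to 0.021 and from -0.31 to 0.057 in the same order of comparisons, and that of Psmb9 to Psmb6 in HFD_HDCA against HFD from -0.021 to 0.46. The cause was not tested.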

Other observations

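Rps27a, which encodes ubiquitin fused to a ribosomal protein, had 138, 142 and 141 CPM in ND, 142, 105 and 104 CPM in HFD and 239.8, 133 and 199 CPM in HFD_HDCA. HFD_HDCA 2 lay lowest of its group, as it did for Psma5, Psma6 and Psma7. The log2 fold change in HFD_HDCA against HFD was 0.70, at an adjusted p of 0.0828 by edgeR. DESeq2 called it, with 8.8% of all genes called. Pomp, the maturation factor of the 20S core, was chosen after its values were seen. It had 112, 110.4 and 96.5 CPM in HFD and 149, 95.7 and 126 CPM in HFD_HDCA, and its libraries overlapped.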
